A study of Arabidopsis thaliana with 14 samples.

Results

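AT1G03890 encodes a seed storage protein of the cupin family, and 1 of the 22746 probe sets analysed is paired by the platform annotation with this gene alone. The gene was taken as chosen by its lower signal on KAR1 than on water, averaged over both genotypes. Its KAR1 minus water values are therefore given below as a description. Only their difference between the genotypes was tested. RNA came from primary dormant Arabidopsis thaliana seed that had been imbibed for 24 h at 20 C under white light of 100 uE on agar of 0.8%. The agar either carried 1 uM KAR1, a butenolide of smoke that promotes germination, or was plain water-agar. The groups were ga1-3 seed on KAR1 (3 arrays), ga1-3 seed on water (3 arrays), wild type (WT) seed on KAR1 (4 arrays) and WT seed on water (4 arrays). The WT is the ecotype Landsberg erecta. The mutant ga1-3 carries a defect in gibberellin synthesis, and its seed cannot germinate without added hormone. Letters name harvests of seed, A to C in ga1-3 and A to D in WT, and each harvest gave a KAR1 array and a water array. These harvests are called seed batches here. Whole seed was extracted, so embryo, endosperm and seed coat are pooled on every array.

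Cupin storage proteins fill the protein storage vacuoles of the maturing embryo and supply nitrogen and carbon to the seedling. The 12S globulins (cruciferins) of this family are made as precursors in the endoplasmic reticulum, travel to the vacuole and are cut there into paired chains by vacuolar processing enzymes. Their genes are switched on during maturation by the regulators ABI3, FUS3 and LEC2 together with bZIP factors, and dry seed still holds much of the RNA. During imbibition this stored RNA declines as seed moves toward germination. AT1G03890 lies directly beside CRU2 (AT1G03880), the cruciferin B gene, in the gene order of TAIR10.1, and both are 12S globulin genes.

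Medians over all probe sets of an array were 12.6 in intensity on both WT batch A arrays and ran from 10.4 to 11.1 on the others. The share of probe sets at an intensity of 16 or more was alike, at 46.8% to 47.6% of an array. The arrays had no count of molecules, so their number and the shared seed batches limit the precision. Of 5 lists of storage and maturation genes written by locus, 37 members other than AT1G03890 had a named probe set, and 30 of them had a group mean at 16 or more. BAN, a flavonoid enzyme of the seed coat, lay under 16 in every group. No listed marker of endosperm (6 genes) or of green seedling tissue (12 genes) had a named probe set here, so the shares of these tissues were not tested.

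AT1G03890 lay far above an intensity of 16 on all 14 arrays. In ga1-3 seed on KAR1 its intensity was 1025.2, 686.9 and 755.6 in batches A, B and C, against 2056.1, 1123.2 and 1231.5 in ga1-3 seed on water. In WT seed on KAR1 it was 883.8, 944.9, 751.2 and 799.9 in batches A to D, against 1021, 1247.5, 1079.6 and 1325.8 in WT seed on water. Every KAR1 array lay below every water array of its own genotype, and the ranges did not overlap in ga1-3 or in WT. Over all probe sets, 2.72% showed this separation in ga1-3 and 0.51% in WT. These shares are given as background only, since the gene was picked for this difference. The array of ga1-3 batch A on water was the highest of the 14, and the array of ga1-3 batch B on KAR1 was the lowest.

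On the log2 scale the order of the group means was ga1-3 on water, WT on water, WT on KAR1 and ga1-3 on KAR1, high to low. The means were 10.47 ± 0.47 (SD, n = 3) in ga1-3 on water and 10.18 ± 0.18 (SD, n = 4) in WT on water, whose arrays overlapped. They were 9.66 ± 0.30 (SD, n = 3) in ga1-3 on KAR1 and 9.72 ± 0.15 (SD, n = 4) in WT on KAR1, which also overlapped. The step between KAR1 and water lay between these pairs of means, although the ga1-3 batch A array on KAR1 (1025.2) was just above the WT batch A array on water (1021). In whole seed, fewer cells holding this RNA and less of it per cell cannot be told apart.

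**Figure D1:**
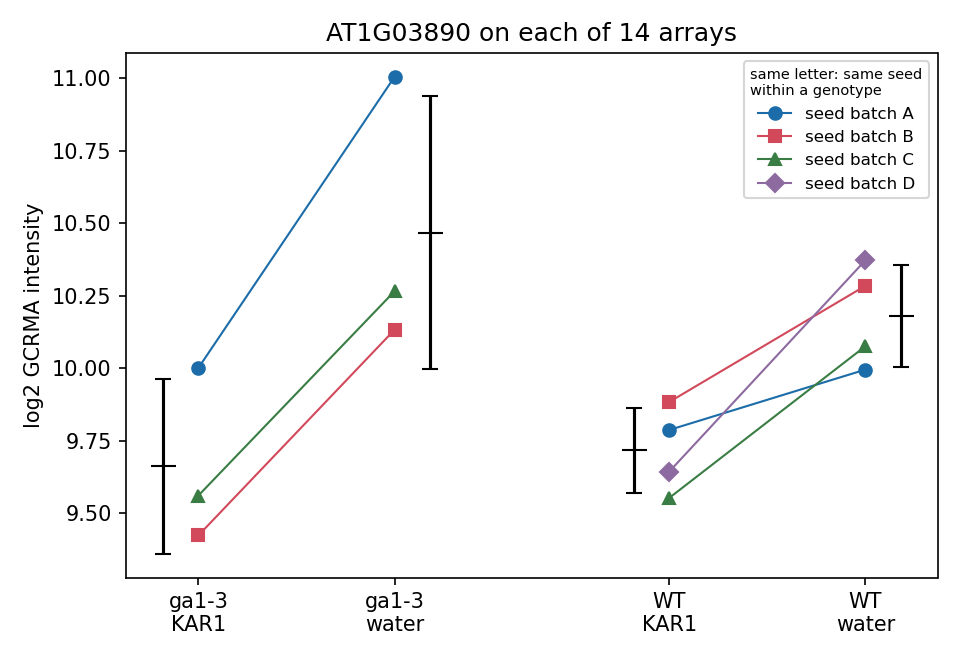
Log2 intensity of AT1G03890 (vertical axis) on each of the 14 arrays by group; lines join the KAR1 and water arrays of 1 seed batch, and black bars are the group mean ± SD. All 7 lines run lower on KAR1 than on water, and both ga1-3 batch A arrays (1025.2 on KAR1 and 2056.1 on water before log2) lie above the other ga1-3 arrays of their treatment.

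The difference between KAR1 and water had the same sign in all 7 seed batches. In ga1-3 it was -1.004, -0.71 and -0.70 (log2) in batches A, B and C, a mean of -0.81 ± 0.17 (SD, n = 3). KAR1 signal was thus 0.572 times the water signal in ga1-3 on average. In WT it was -0.21, -0.40, -0.52 and -0.73 in batches A to D, a mean of -0.47 ± 0.22 (SD, n = 4), or 0.724 times the water signal. Batch A was the least affected harvest of WT, with 13.4% less signal on KAR1, and batch A was the most affected of ga1-3, with 50.1% less. The letters name different seed in the 2 genotypes. Averaged with equal weight for each genotype, the difference was -0.64, the 12th most negative of 22746 probe sets. KAR1 lay below water in all 7 seed batches for 2.14% of probe sets.

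The batches also fall into 3 clusters by the signal of 45 probe sets for spiked-in control transcripts, here called hybridisation clusters. These clusters were built from the data and are no labelled batch. Cluster 1 holds WT A and B, cluster 2 holds ga1-3 A with WT C and D, and cluster 3 holds ga1-3 B and C. Every cluster holds the KAR1 array and the water array of each of its seed batches. The difference of AT1G03890 was -0.21 and -0.40 in cluster 1, -1.004, -0.52 and -0.73 in cluster 2, and -0.71 and -0.70 in cluster 3. The sign was the same in all 3 clusters, which follows from its being the same in every seed batch. Within cluster 2 the ga1-3 batch had the larger difference.

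The mean KAR1 difference in ga1-3 minus that in WT was -0.34 ± 0.29 (log2, SE), which limma did not call (adjusted p = 1 with Benjamini-Hochberg adjustment over 22746 probe sets). The 95% interval of this difference ran from -0.97 to 0.29, so it covers equal effects in both genotypes as well as a clearly larger one in ga1-3. With the seed batch as block, which is the pairing that the labels give, the value was again -0.34 with an SE of 0.14 and an interval of -0.67 to -0.015, and it was not called either (adjusted p = 1.00). No probe set passed for this comparison in either fit, which is 0% of those tested. At an unadjusted limma p under 0.05 there were 116 (0.51%) without block and 615 (2.7%) with it. AT1G03890 was among those with the block (unadjusted p = 0.0427) and not among those without it (0.260). These tests use the KAR1 minus water values by which the gene was picked, so they are no support for a difference. The -0.34 rested much on the ga1-3 water array of batch A. Without that array the KAR1 difference in ga1-3 was -0.54 and its difference from the WT value was -0.072.

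ga1-3 against WT was a further comparison of the level of this storage transcript between the genotypes. It was among the values named when the gene was chosen, so its tests may not be independent of that choice. The seed differed in harvest as well as in genotype, so an effect of gibberellin itself was not tested. No difference was called. On water AT1G03890 was 0.29 ± 0.20 (log2, SE) higher in ga1-3, with an adjusted p of 0.289 and a 95% interval of -0.16 to 0.73. On KAR1 the difference was -0.055 ± 0.20, with an adjusted p of 0.848 and an interval of -0.50 to 0.39. Of all probe sets, limma called 36.5% on water and 37.6% on KAR1, so AT1G03890 was among the larger share that did not pass. Quantile normalization gave 0.18 on water and -0.21 on KAR1, neither called (adjusted p = 0.538 and 0.469). As deposited, the median ga1-3 minus WT difference of all probe sets at 16 or more was itself 0.16 on water and 0.13 on KAR1, and after quantile normalization it was 0.010 and 0.0064. With each seed batch reduced to the mean of its 2 arrays, the level was 10.07 ± 0.39 (SD, n = 3) in ga1-3 and 9.95 ± 0.12 (SD, n = 4) in WT. The difference of 0.12 had an exact two-sided permutation p of 0.743 over 35 arrangements, where 0.0571 is the smallest p this design can give.

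The size of the genotype difference depended on ga1-3 batch A. Without both arrays of that batch, the difference was 0.017 on water and -0.22 on KAR1, neither called in limma. In cluster 2, which holds ga1-3 batch A and WT batches C and D, AT1G03890 had 1025.2 in ga1-3 on KAR1, against 751.2 and 799.9 in WT. On water it had 2056.1 in ga1-3, against 1079.6 and 1325.8 in WT. With the cluster as block, limma called the difference on water (0.76 ± 0.16, adjusted p = 0.00725) but not on KAR1 (0.42 ± 0.16, adjusted p = 0.0881). Fitted on the arrays of cluster 2 alone, with 2 residual degrees of freedom, the difference on water was 0.78 ± 0.17 and did not pass (adjusted p = 0.103). Only cluster 2 holds both genotypes, so this value rests on 1 ga1-3 harvest, and recurrence over harvests was not tested by it. Between the harvests in the other clusters, genotype and cluster cannot be told apart.

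**Figure D2:**
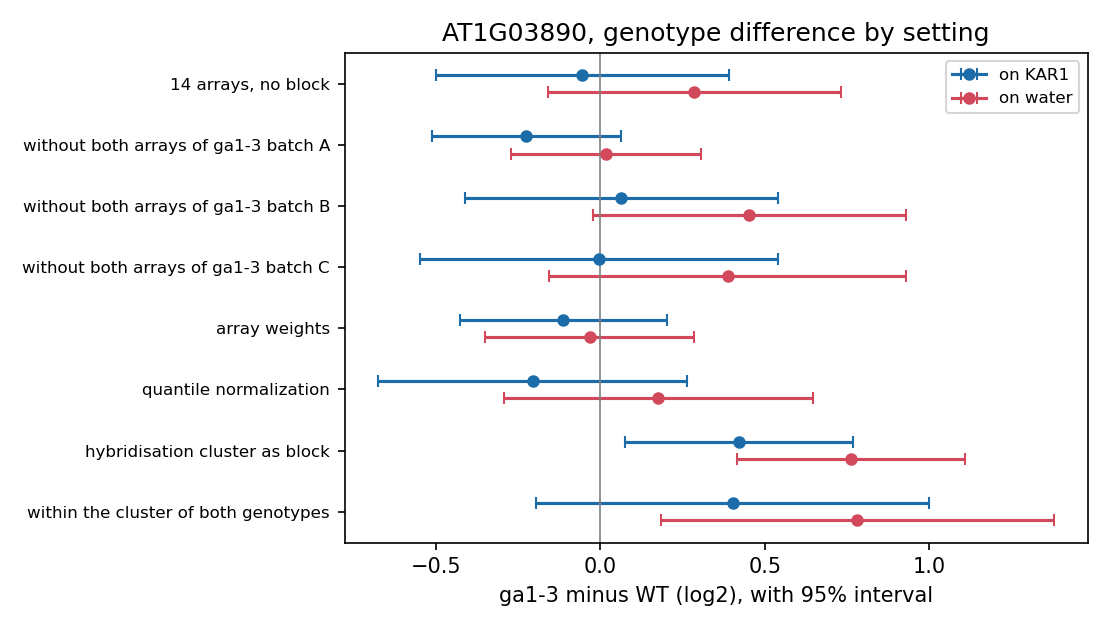
ga1-3 minus WT difference of AT1G03890 (horizontal axis, log2) on KAR1 and on water under 8 settings of the limma fit; points are estimates and bars 95% intervals. The estimate on water is 0.29 over 14 arrays, 0.017 without ga1-3 batch A and 0.76 with the hybridisation cluster as block.

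The other storage cupins did not show a KAR1 difference of this size, but AT1G03890 was chosen by the size of its own, which partly fixes this contrast. Of 10 seed cupin genes listed, 7 had a named probe set, AT1G03890 included, and the annotation names none for the cruciferins CRU1, CRU2 and CRU3. None of the other 6 was called for the mean KAR1 difference, with or without the seed batch as block. Over all probe sets limma called 0.022% without block and 0.378% with it. PAP85, a vicilin-like globulin, had 22843.9 to 24795.4 in ga1-3 on KAR1 against 25181.2 to 26166.1 in ga1-3 on water. In WT its ranges overlapped, at 23695.6 to 25606.1 on KAR1 and 24570.4 to 26165.9 on water. Its mean KAR1 difference was -0.069. AT2G28490, another vicilin-like cupin, had -0.12, and AT2G18540 had -0.13. PAP85 and AT2G28490 had far higher signal than AT1G03890, and whether log2 differences are comparable between such levels was not tested. AT4G36700, of the same family, had -0.23, with -0.18, -0.41 and -0.37 in ga1-3 batches A to C and between -0.22 and -0.11 in WT (adjusted p = 0.0671 with the block). Each of AT2G28490, AT2G18540 and AT4G36700 was lower on KAR1 in all 7 seed batches, but by less than AT1G03890 in every batch. Of all probe sets 2.14% were lower in all 7, and of those with a group mean at 16 or more 4.18%. AT1G07750, a cupin outside the storage globulins, had 0.28, and AT2G28680 lay under 16 on every array.

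Between the genotypes, 2 of these 6 relatives were called higher and 1 lower in ga1-3 on each medium, where limma called 36.5% of all probe sets on water and 37.6% on KAR1. AT4G36700 was 1.77-fold higher in ga1-3 on water (log2 0.83 ± 0.20, adjusted p = 0.00801) and 1.58-fold higher on KAR1 (adjusted p = 0.0233). Its arrays lay at 2228.6 to 2757.1 in ga1-3 on water, against 1045.7 to 1730.2 in WT on water. How many of all probe sets have separate ranges between the genotypes was not counted. AT1G07750 was 2.11-fold higher on water (log2 1.08 ± 0.29, adjusted p = 0.0126) and did not pass on KAR1 (0.74 ± 0.29, adjusted p = 0.0627), where the seed batch as random block called it (adjusted p = 0.0449). AT2G28490 passed on KAR1 only (0.23 ± 0.076, adjusted p = 0.0315), while on water its difference was 0.17. PAP85 and AT2G18540 did not pass on either medium. AT2G28680 was called lower on both, at intensities of 4.3 to 4.5 where a step of 0.1 in the table decides. With quantile normalization and with equal array medians, AT4G36700 and AT1G07750 were still called on water (adjusted p of 0.0214 to 0.0263), but AT4G36700 on KAR1 (0.0571 and 0.0583), AT2G28490 on KAR1 (0.125 and 0.161) and AT2G28680 on both media were not. PAP85 was called lower in ga1-3 on KAR1 with quantile normalization alone (-0.18, adjusted p = 0.0111).

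**Figure D3:**
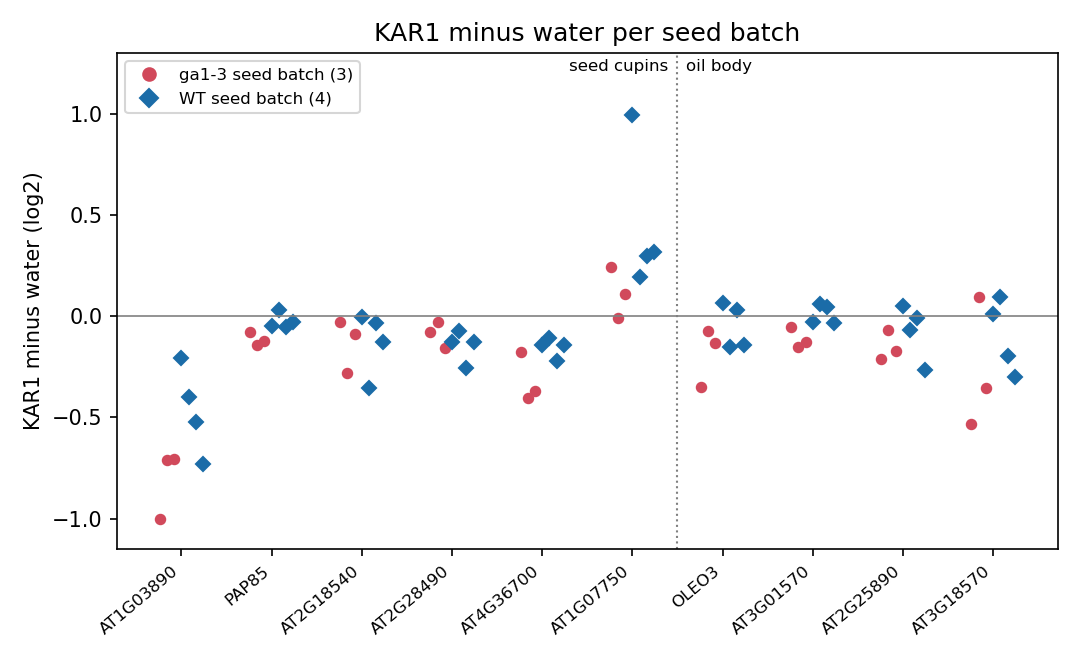
KAR1 minus water difference (vertical axis, log2) in each seed batch, for the named seed cupin and oil body genes with a group mean at 16 or more; red circles are the 3 ga1-3 batches and blue diamonds the 4 WT batches. AT1G03890 runs between -1.004 and -0.21, while AT4G36700, the next lowest by mean among these genes, has a mean of -0.23.

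Oil body genes code for the proteins that coat the lipid stores of the embryo. The 4 that were measured had mean KAR1 differences of -0.18 to -0.050, and none was called. OLEO3, an oleosin, had -0.12, and the further oleosins AT3G01570, AT2G25890 and AT3G18570 had -0.050, -0.11 and -0.18. AT3G18570 reached -0.53 in ga1-3 batch A, the batch with the largest difference of AT1G03890, but was at 0.095 in ga1-3 batch B. AT2G25890 was 1.18-fold higher in ga1-3 on water (0.24 ± 0.082, adjusted p = 0.0386), and the other 3 oleosins did not pass on either medium. This 1 of 4 stands beside 36.5% of all probe sets called on water, and the median difference of all probe sets at 16 or more was 0.16. The difference of AT2G25890 was 0.060 after quantile normalization (adjusted p = 0.599) and 0.26 with equal array medians (adjusted p = 0.0975), called in neither. None of the 5 listed 2S albumins, the second large class of storage proteins, had a named probe set.

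Late embryogenesis abundant proteins and dehydrins protect the drying embryo. None of the 18 measured members was called for KAR1. Their mean differences lay between -0.22 and 0.015 with a median of -0.043. The median was -0.00021 over all probe sets and -0.016 over those with a group mean at 16 or more. Of the 18 members 15 reached that level. Between genotypes 6 were higher and 3 lower in ga1-3 on water, where 19.7% of all probe sets were called higher and 16.8% lower. AT2G42560 had the largest difference, at 5150.3 to 9735.1 in ga1-3 on water against 114.9 to 1810.6 in WT on water (3.33 ± 1.01, adjusted p = 0.024). AT3G53040 was higher in ga1-3 on water by 0.77 (adjusted p = 0.0135) and AT3G17520 by 0.44 (adjusted p = 0.0422). AT2G23110 fell by 0.73 in ga1-3 on water (adjusted p = 0.0218). The counts of higher and lower members were 7 and 4 with the seed batch as random block, 3 and 5 with quantile normalization, and 2 and 2 with equal array medians. AT3G53040 and AT2G23110 were called under all 3, as were AT4G21020 (0.55 as deposited) and LEA4-5 (-0.39 as deposited). AT2G42560 was not called with equal array medians (adjusted p = 0.0603), and AT3G17520 was called under neither scaling (0.196 and 0.0936).

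Storage globulins need cleavage in the vacuole, and the 7 measured genes for processing and vacuolar proteases showed no called KAR1 difference either. BETA-VPE, the seed type vacuolar processing enzyme that cuts 12S globulin precursors, had a KAR1 difference of -0.040 and a difference of 0.041 between ga1-3 and WT on water. In ga1-3 against WT 2 of the 7 were called higher on water, and 3 higher and 1 lower on KAR1, beside 36.5% and 37.6% of all probe sets called. GAMMA-VPE, the vegetative type, was higher in ga1-3 on water by 0.98 ± 0.18 (adjusted p = 0.0013). APA1, an aspartic protease, was higher by 0.46 (adjusted p = 0.00935), and AT1G62290, of the same protease family, passed on KAR1 (0.51, adjusted p = 0.0463). DELTA-VPE, of the seed coat, was called lower in ga1-3 on KAR1 but lay under 16 in every group. GAMMA-VPE was called on water under both other scalings, while APA1 on water was not called with quantile normalization (adjusted p = 0.0515), and AT1G62290 and DELTA-VPE on KAR1 were called under neither. AT1G62290 on water was 0.49 and was called with the seed batch as random block only (adjusted p = 0.0305). Of 20 listed regulators of seed maturation 2 were measured, and neither was called in any of these comparisons. BZIP53, a bZIP factor that binds storage gene promoters with ABI3, had a KAR1 difference of -0.17, and EEL, a bZIP factor related to ABI5, had -0.23. None of the 21 listed abscisic acid genes had a named probe set.

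Over all 37 measured members of these 5 lists, AT1G03890 left out, the mean KAR1 difference ran from -0.23 to 0.28 with a median of -0.051. It was below 0 for 26 of the 30 with a group mean at 16 or more, against 55.1% of all probe sets at that level. limma called 0 of the 37 without block and 0 with it. At an unadjusted p under 0.05 there were 1 without block and 11 with it, of which 10 were lower, against 2.99% and 10.7% of all probe sets. Those shares include probe sets under 16, unlike most of the 37 members, and were not counted at 16 or more. They are therefore no like background. The -0.64 of AT1G03890 lay below the lowest of these values, a description that its choice partly fixes.

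None of the 5 transcripts most like AT1G03890 was a listed storage gene, but the cruciferins CRU1 to CRU3 and the 2S albumins had no named probe set and were no candidates. Likeness was Pearson's r of the log2 values over the 14 arrays, which share seed batches, for 6173 named probe sets with a group mean at 16 or more; the median r was 0.054. The 5 highest belonged to HPR (0.87), AT2G30600 (0.85), AT4G33980 (0.84), AT1G13640 (0.84) and AT3G56350 (0.84). HPR encodes hydroxypyruvate reductase, a peroxisomal enzyme of photorespiration. Its mean KAR1 difference was -0.41, that of AT2G30600 -0.55 and that of AT4G33980 -0.55, each below 0 in all 7 seed batches. AT1G13640 had -0.28 and AT3G56350 -0.11. All 5 were picked for likeness to a gene chosen by its KAR1 difference, which largely fixes their lower means on KAR1. Of the listed storage genes PAP85 came nearest, with r of 0.77 over the 14 arrays and a mean KAR1 difference of -0.069. The highest 1% of the candidates began at an r of 0.67, so PAP85 was among them.

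**Figure D4:**
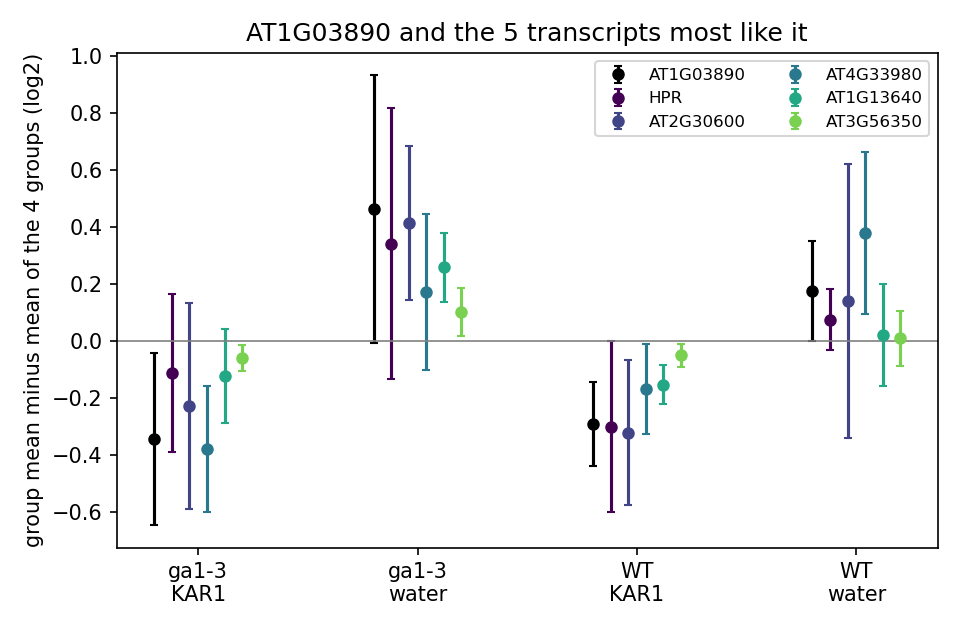
Mean of each group minus the mean of the 4 groups (vertical axis, log2) for AT1G03890 and the 5 transcripts with the highest r over 14 arrays; bars are the SD over the 3 or 4 arrays of a group. All 6 transcripts have lower means on KAR1 than on water in ga1-3 and in WT, by 0.81 and 0.47 for AT1G03890 and by 0.16 and 0.059 for AT3G56350. The pick by likeness largely fixes this shared direction.

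Other transcripts came first when likeness was taken over the seed batch differences, a measure that leaves out the size of the mean fall. Over the 7 KAR1 minus water differences, r was highest for AT2G43930 (0.99), AT3G01400 (0.99), AT1G15330 (0.99), AT4G05150 (0.99) and AT5G01670 (0.98), chosen among 6173 with only 7 points. AT2G43930 reached 16 only in WT, at 27.7 to 41.2, and lay at 6.1 to 7.5 in ga1-3, where its differences were -0.27, 0 and 0, so its r rests on ga1-3 values near the bottom of the table. The mean KAR1 differences of the 5 were 0.034, -0.041, -0.27, -0.29 and -0.14. All but AT5G01670 had differences on both sides of 0, and the likeness lay in how the harvests ranked, with ga1-3 batch A lowest and WT batch A highest in all 5.

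The nearest measured genes around AT1G03890 had KAR1 differences of both signs over the seed batches. Its direct neighbours CRU2 and ABCI18 had no named probe set. The nearest measured gene on the side of CRU2 was AT1G03830, 6 genes away, with a mean KAR1 difference of -0.061 ± 0.29 (SE). Its differences were 0.49, -0.93, -0.29 and 0.29 in WT batches A to D and ran from -0.097 to 0.12 in ga1-3. On the other side it was AT1G03910, 3 genes away, with a mean of 0.0047 ± 0.13 (SE) and seed batches from -0.31 to 0.34. Neither was called for KAR1 or between the genotypes. Whether the probes of AT1G03890 also bind RNA of the neighbouring CRU2 was not tested, since probe sequences were not used here.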

How the data were processed

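Biotin-labelled cRNA from 7 ug of total RNA per sample was hybridised to single-colour 3' expression arrays, per the labels' protocols. The deposited intensity, 1 value per probe set and array on a linear scale (3.5 to 39328.1), was made by the authors with GCRMA per the submitters' processing notes; its version and joint or separate normalization of arrays are not given in the sources used here. No scanner values or detection calls were used here.

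The table's 14 columns carry the samples' names. Dropping 64 controls from its 22810 probe sets, log2 was taken with no filter. The annotation gives 1 gene for 13513 probe sets, several for 503, and lists no name for 8730; 13436 matched TAIR10.1 through the gene ID. limma 3.58.1 in R 4.3.3 fitted the 4 group means with lmFit and a robust, trended eBayes, tested two-sided on 10 residual degrees of freedom. Probe sets were called at an adjusted p (Benjamini-Hochberg, over 22746) below 0.05. Code was tested on simulated data. The exact permutation test used scipy 1.17.1.

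Seed batches pair KAR1 and water arrays per the labels; deviations from group means correlated within the 7 pairs at 0.507 to 0.855. Blocking on the seed batch leaves 5 residual degrees of freedom. The labels call the seed batches distinct harvests and say no more of their source. Alternatives were block type, arrays left out, scaling, low values, array weights and hybridisation cluster (average linkage, cut into 3). For genotype calls of list members, the random block and both scalings were added after seeing the data. The gene and the lists were chosen with earlier results of these data known. Named genes are all measured cupin and oil body members, up to 4 called members of other lists (or the highest 2), the 5 most alike by each measure, and the nearest measured neighbours. BETA-VPE, BAN, AT4G21020 and LEA4-5 were added after their values were seen.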

Additional observations from a re-analysis of the deposited data

Results flagged for a closer look

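Among AT1G03890 and the named seed cupin and oil body genes, 33 sets of 4 WT values (arrays of a group or KAR1 minus water differences) were searched for a value far from the others, and 4 were found, where chance gives about 1 in 20. None belonged to AT1G03890. PAP85 stood apart on the WT water array of batch D at log2 14.68. AT1G07750 had a KAR1 minus water difference of 0.99 in WT batch A, against 0.20 to 0.32 in WT batches B, C and D. AT2G28680 stood apart at 2.14 on the WT KAR1 array of batch A and on the WT water array of batch C, at intensities near the bottom of the table, where the single decimal sets the steps.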

How the results depend on the processing

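The KAR1 minus water difference of AT1G03890 stayed below 0 in WT, in ga1-3 and in their mean under all 30 alternatives. This sign was largely fixed in advance, since the difference chose the gene and was below 0 in all 7 seed batches. Several alternatives change only the SE and not the estimate. With 1 array or 1 seed batch left out, the mean ran from -0.72 to -0.50, WT from -0.55 to -0.38 and ga1-3 from -0.98 to -0.54, the last when batch A lacked its ga1-3 water array. Within hybridisation cluster 2 the ga1-3 value was -1.004, since only batch A is there. The difference between the genotypes in KAR1 effect was not called under any alternative; with the seed batch as replicate block it was -0.34, with array weights -0.080, and with arrays or batches left out -0.51 to -0.072. For the mean KAR1 difference 86 probe sets were called with the block, against 5 without it, and 0 of the 37 list members in either fit.

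ga1-3 minus WT on water was -0.032 with array weights and 0.76 with the cluster as block, where it was called, and 0.78 within cluster 2, where it was not; the cause was not tested. With arrays or batches left out it ran from 0.017 to 0.45 and was never called (adjusted p of 0.152 to 0.953). On KAR1 it was 0.42 with the cluster as block and 0.40 within cluster 2, and ran from -0.22 to 0.065 with arrays or batches left out. Over seed batches it was -0.014 after quantile normalization, and -0.10 to 0.26 with 1 batch left out, the lowest without ga1-3 batch A (exact p = 0.4), and 0.59 within cluster 2 (exact p = 0.667 over 3 arrangements, the smallest they can give). Quantile normalization moved the median genotype difference of probe sets at 16 or more by -0.15 on water and -0.13 on KAR1. Equal array medians lowered the share of probe sets called between genotypes to 17.7% on water, against 36.5% as deposited, and to 19.3% on KAR1, against 37.6%. For the seed batch means, leaving out 1 array and the cluster as block were not run, as each mean needs both arrays. Signal over background could not be judged without scanner values.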
